A study of Homo sapiens with 10 samples.

Results

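The smooth muscle contractile genes are the 10 genes listed for this report, ACTA2, ACTG2, MYH11, MYL9, MYLK, TPM1, TPM2, CALD1, CNN1 and TAGLN, out of 24050 genes listed in either of both count tables of the series. They were chosen by name, and each of the 10 is listed in both tables. RNA-seq was performed on HEK293T cells, a line derived from human embryonic kidney, and on neural progenitor cells (NPCs) obtained from H1 human embryonic stem cells through embryoid bodies. In each cell type, unmodified (WT) cells were compared with cells in which ZNF274 had been deleted by CRISPR-Cas9 with guides on both sides of the gene (ZNF274 KO). There were 3 WT and 3 KO libraries of HEK293T cells and 2 WT and 2 KO libraries of NPCs. The series describes independent clones, but no label ties a library to a clone, so P values measure the spread between these libraries. ZNF274 encodes a zinc finger protein that recruits repressive chromatin to its targets, and the comparison asks which genes change when it is lost.

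The contractile apparatus of smooth muscle is built from actin filaments that slide along myosin. Phosphorylation of the myosin regulatory light chain by myosin light chain kinase starts contraction, and tropomyosin, caldesmon, calponin and transgelin bind along the actin filament. Several of these genes are also active in fibroblasts and other non-muscle cells under tension. Most are known targets of serum response factor (SRF), which binds the CArG box and acts with the coactivators myocardin (MYOCD) and the myocardin-related factors MKL1 and MKL2.

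The libraries held between 18621266 and 32285876 counts on genes. ZNF274 had 445, 423 and 492 counts in the WT HEK293T libraries S15, S16 and S17 and 491 and 496 counts in the WT NPC libraries S3 and S5. It had 0 counts in each of the 5 KO libraries, as labelled. Levels are given in CPM, counts scaled to the library size with TMM factors. A gene was called up-regulated or down-regulated when its adjusted P value from edgeR's quasi-likelihood test, over all genes tested, was below 0.05 and its fold change (FC) above 2. The labels give no batch other than the cell type, and the cell type cannot be told apart from the table it was deposited in. Neural progenitor markers were present in WT NPCs, where SOX2 stood at 223 ± 5.52 CPM and NES at 2630 ± 518 CPM (SD, n = 2). In KO NPCs, SOX2 was at 16.9 ± 5.93 CPM and NES at 3135 ± 67.9 CPM (SD, n = 2), and SOX1 had 1 and 2 counts.

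Promoter sequences are shown for members with a CArG box or a near match to it, because most members are known targets of SRF. RefSeq (GRCh38.p14) gave 12 windows of 250 bases upstream of a start site for 7 of the 10 genes. TAGLN, MYL9 and MYH11 were not matched. The CArG box was searched as CC and GG with a run of A or T bases between them, 10 bases in all, and it reads as the same kind of site on both strands. The CArG-like box allows at most 1 base of that run to be another, so it includes the CArG box. Capitals mark the matches, and each line runs 5′ to 3′ on the strand of the gene. The windows are ACTG2 at chr2:73892758-73893007 on the plus strand, MYLK at chr3:123620549-123620798 on the minus strand, ACTA2 at chr10:88952774-88953023 on the minus strand and CALD1 at chr7:134711249-134711498 on the plus strand.
ACTG2: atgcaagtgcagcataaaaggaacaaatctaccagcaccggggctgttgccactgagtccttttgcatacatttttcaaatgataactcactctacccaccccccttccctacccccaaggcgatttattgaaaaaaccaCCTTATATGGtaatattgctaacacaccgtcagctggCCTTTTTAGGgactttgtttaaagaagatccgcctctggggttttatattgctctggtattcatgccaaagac
MYLK: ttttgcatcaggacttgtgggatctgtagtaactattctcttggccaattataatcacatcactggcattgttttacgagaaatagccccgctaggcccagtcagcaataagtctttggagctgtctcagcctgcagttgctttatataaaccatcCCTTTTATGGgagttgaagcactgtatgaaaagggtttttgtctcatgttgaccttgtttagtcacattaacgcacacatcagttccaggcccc
ACTA2: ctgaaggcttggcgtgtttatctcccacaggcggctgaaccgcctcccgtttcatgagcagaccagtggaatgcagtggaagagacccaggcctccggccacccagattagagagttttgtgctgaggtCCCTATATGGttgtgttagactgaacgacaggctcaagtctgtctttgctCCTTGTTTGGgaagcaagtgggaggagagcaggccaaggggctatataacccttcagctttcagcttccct
CALD1: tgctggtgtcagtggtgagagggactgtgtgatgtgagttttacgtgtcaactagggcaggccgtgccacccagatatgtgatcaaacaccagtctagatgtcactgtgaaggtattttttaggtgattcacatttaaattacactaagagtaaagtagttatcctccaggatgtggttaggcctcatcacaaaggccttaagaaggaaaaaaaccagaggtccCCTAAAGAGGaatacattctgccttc

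In ACTG2, the CArG boxes CCTTATATGG and CCTTTTTAGG began 110 and 73 bases upstream of the start site. The MYLK window held CCTTTTATGG at 94 bases upstream of a start site that lies near the 3′ end of the gene, the end of MYLK from which the short protein telokin is known to be made. The ACTA2 window shown held only CArG-like boxes, CCCTATATGG at 121 and CCTTGTTTGG at 71 bases upstream. So did the CALD1 window shown, with CCTAAAGAGG at 26 bases upstream. ACTA2 and CALD1 have further start sites, and their windows, not shown, held no CArG-like box. The CArG box was found in 2 of the 12 windows of the members and in 407 of all 35116 windows searched (1.16%). The windows searched leave out a chromosome that holds no member and any window shorter than 250 bases. The CArG-like box was found in 4 of the 12 and in 7.04% of all windows. The motif GGAATG, which the TEAD factors are known to bind, was found on either strand in 3 of the 12 windows, of CALD1 and ACTA2, and in 11.9% of all windows, and it overlapped no CArG box there. The windows of TPM1, TPM2 and CNN1 held none of these letters. A match of letters is a description and no evidence of binding.

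The members were far more abundant in WT NPCs than in WT HEK293T cells. In this comparison, which was fitted over all 10 libraries, 9 of the 10 members were called higher in NPCs and 0 lower, and 25.2% of the 19255 genes tested were called higher and 15.5% lower (40.7% in either direction). The median log2 difference of the members was 5.87, against 0.13 over all genes tested. Together the 10 genes took between 170.3 and 205 CPM in the WT HEK293T libraries and 2645 and 3097 CPM in the WT NPC libraries. The WT libraries of the cell types did not overlap for any of the 9 genes called. The share of all genes without overlap was not computed for this comparison, so this is a description only.

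CALD1 and TPM1 were the only members above 10 CPM in WT HEK293T cells, at 136.5 ± 18.8 and 39.1 ± 1.93 CPM (SD, n = 3). CALD1 was higher in WT NPCs by 2.21 on the log2 scale (standard error 0.198, adjusted P = 1.6e-06) and TPM1 by 4.05 (standard error 0.299, adjusted P = 3.29e-07). The log2 difference was 6.69 for TPM2, 5.04 for MYLK and 3.66 for ACTA2. TAGLN went from 37, 20 and 19 counts in the WT HEK293T libraries to 17201 and 20882 counts in the WT NPC libraries, a log2 difference of 10.10 (standard error 0.250, adjusted P = 1.99e-10). Without WT NPC library S5, the difference of MYLK was 4.44.

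ACTG2, MYL9 and CNN1 were close to absent from HEK293T cells. MYL9 had 4 counts in S15 and 0 in the other 5 HEK293T libraries. ACTG2 had 5 counts in S16, 1 in S20 and 0 in the others. In CNN1 the WT HEK293T libraries held 2, 2 and 5 counts. Relative to all counts, the pooled WT NPC libraries exceeded the pooled WT HEK293T libraries 533-fold for ACTG2 (95% exact interval 228 to 1644), 5715-fold for MYL9 (2231 to 20980) and 359-fold for CNN1 (189 to 787). These intervals cover counting error only, since the counts were pooled and the spread between libraries was left out. The reads also carry no molecular identifiers, so even counting error may not be fully covered. The fitted log2 differences were 8.86 for ACTG2, 12.25 for MYL9 and 8.34 for CNN1, and they became 12.48 for ACTG2 without S16 and 15.57 for MYL9 without S15, each the sole WT HEK293T library with a count. MYH11, the heavy chain that defines mature smooth muscle, was the exception. It had 13, 3 and 10 counts in the WT HEK293T libraries and 5 and 20 in the WT NPC libraries, and the difference was not called (log2 difference 1.09, 95% interval -0.48 to 2.66, adjusted P = 0.217). It was -0.29 without WT NPC library S5 and 1.80 without S3, not called in either case.

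**Figure D1:**
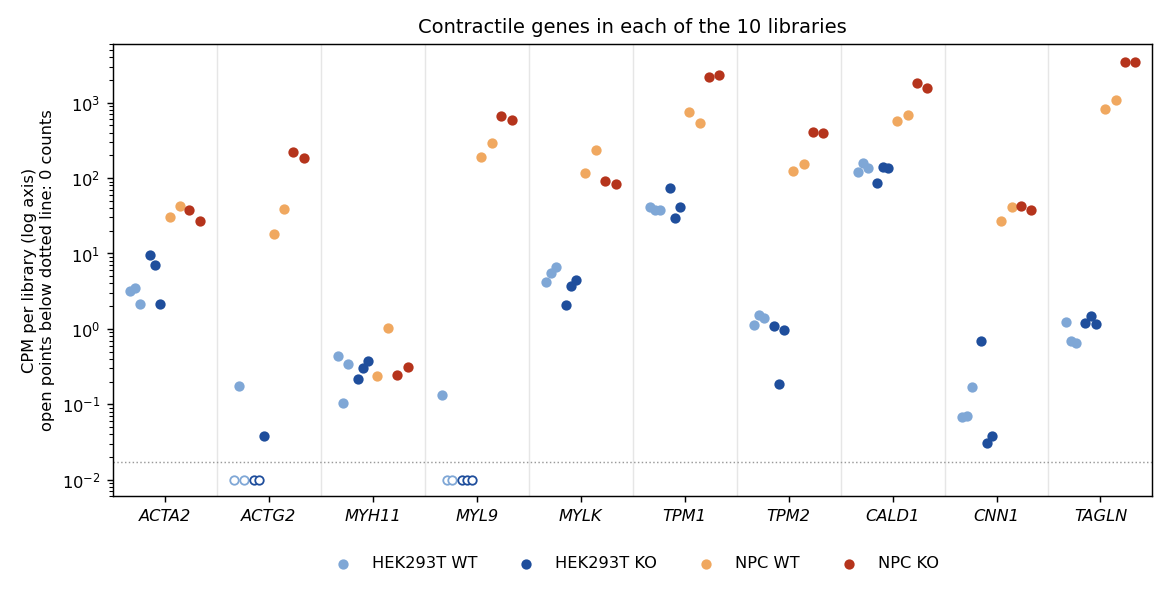
CPM of each member (log axis) in the 10 libraries, 1 point per library, with libraries of 0 counts drawn as open points below the dotted line. In NPCs, both KO points lie above both WT points for ACTG2, MYL9, TPM1, TPM2, CALD1 and TAGLN and below them for MYLK, whereas MYH11 is at or below about 1 CPM in every library.

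Levels of different genes were compared as CPM per kilobase of merged exons. In WT NPCs, TAGLN led at 144 ± 27.5 CPM per kb (SD, n = 2), followed by MYL9 at 86.7 ± 26.6 and CALD1 at 64.2 ± 7.73 CPM per kb. MYL9 and CALD1 overlapped between libraries. TPM2 and TPM1, at 43.7 ± 7.46 and 43.6 ± 10.5 CPM per kb, did not differ beyond their spread. A second tier of CNN1, ACTG2, ACTA2 and MYLK ran from 12.1 to 5.64 CPM per kb, and each overlapped with the next. MYH11 was last at 0.036 ± 0.031 CPM per kb. Per kilobase of the longest transcript, a length chosen after seeing the data, the order in WT NPCs began with TAGLN, TPM1, CALD1, TPM2 and MYL9. In WT HEK293T cells, CALD1 led at 13.95 ± 1.92 CPM per kb, TPM1 followed at 2.66 ± 0.131, and the other 8 members were below 1 CPM per kb.

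In HEK293T cells, no contractile gene differed between KO and WT libraries past the thresholds. Of the 9 members tested, 0 were called, whereas 0.489% of 19018 genes were called (0.478% higher and 0.0105% lower). At an unadjusted P value below 0.05 there was 1 of the 9 members, ACTA2, and 1354 of the 19018 genes. DESeq2 and voom also called 0 members. The median log2 FC of the 9 members was 0.04, and that of all genes 0.01. The tenth member, MYL9, had too few counts to be tested. The groups did not overlap for 1 member, TPM2, and for 12.4% of all genes tested.

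Among the actins, ACTA2, the vascular smooth muscle alpha-actin (ENSG00000107796, hg19 chromosome 10, 90694831 to 90751096), was at 3.17, 3.44 and 2.17 CPM in WT libraries S15, S16 and S17 and at 9.48, 7.06 and 2.17 CPM in KO libraries S18, S19 and S20. Libraries S18 and S19 lay above all WT libraries, and S20 lay at the lowest of them. The log2 FC was 1.09 (standard error 0.448, adjusted P = 0.651). For TPM2, the WT libraries held 34, 44 and 41 counts (1.14, 1.51 and 1.39 CPM) and the KO libraries 25, 6 and 26 counts (1.09, 0.184 and 0.972 CPM). All KO libraries were lower, with the gap resting mainly on S19, and the difference was not called (log2 FC -0.87, 95% interval -2.06 to 0.33, adjusted P = 0.795). CNN1 stood out in 1 KO library, with 16 counts in S18 against 1 in S19 and 1 in S20. Its log2 FC of 1.22 (adjusted P = 0.866) turned to -1.48 without S18.

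The remaining members overlapped between WT and KO HEK293T cells. CALD1 was at 136.5 ± 18.8 CPM in WT and 121 ± 30.2 CPM in KO cells (SD, n = 3), with a log2 FC of -0.17 (95% interval -0.60 to 0.25). TPM1 was at 39.1 ± 1.93 and 48.8 ± 23.4 CPM, where S18 alone reached 74.9 CPM and S19 fell to 29.8 CPM. MYLK went from 5.44 ± 1.27 to 3.38 ± 1.21 CPM (log2 FC -0.68, 95% interval -1.39 to 0.03, adjusted P = 0.720). TAGLN was at 0.856 ± 0.329 and 1.27 ± 0.176 CPM and MYH11 at 0.292 ± 0.170 and 0.300 ± 0.078 CPM. Without S18 the log2 FC was 0.02 for CALD1, and for TPM1 it was -0.13 in place of 0.32. The log2 FC of MYH11, 0.04 over all libraries, was -0.35 without S16 and -0.13 without S20. At these depths, a change in ACTG2, MYL9, CNN1 or MYH11 was not detectable in HEK293T cells unless it was large.

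In NPCs, 6 of the 10 members were up-regulated in KO cells and 1 was down-regulated. Of the 20577 genes tested, 8.45% were called higher and 8.36% lower (16.8% in either direction). The median log2 FC of the members was 1.39, against -0.02 over all genes. For 7 of the 10 members the libraries of the groups did not overlap, as was the case for 67.1% of all genes tested with 2 libraries against 2. The up-regulated genes were ACTG2, TAGLN, TPM1, TPM2, CALD1 and MYL9. The down-regulated gene was MYLK, and ACTA2, CNN1 and MYH11 were not called. Summed over the 10 genes, the level was 2645 and 3097 CPM in the WT libraries S3 and S5 and 9002 and 8720 CPM in the KO libraries S1 and S2. This was 0.272 and 0.325% of all counts in WT and 0.866 and 0.840% in KO NPCs. In such cultures, a change in the share of a cell type and a change in RNA per cell cannot be told apart.

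**Figure D2:**
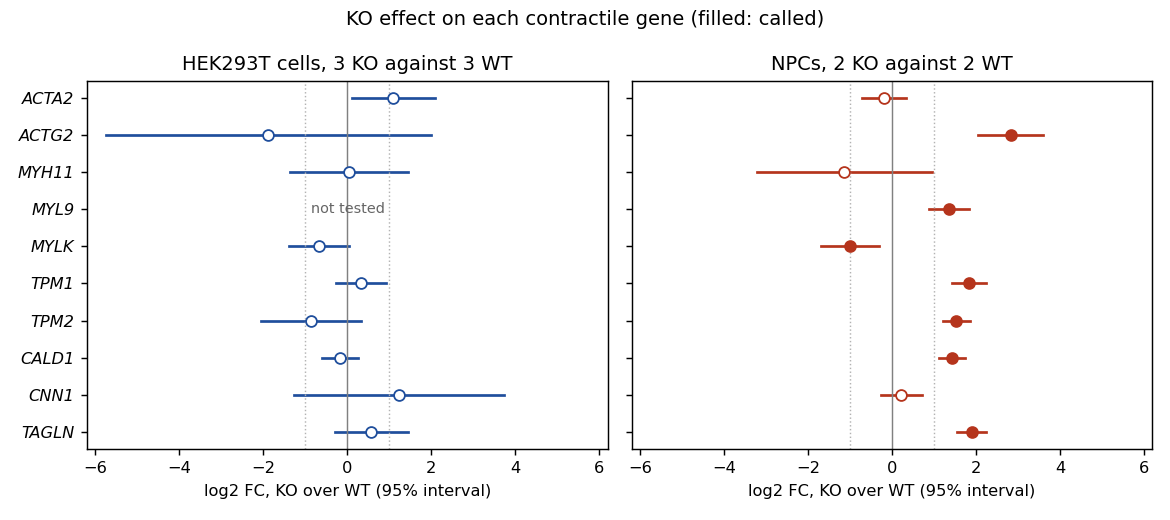
Log2 FC of each member, KO over WT, with its 95% interval from edgeR, in HEK293T cells (left, 3 against 3 libraries) and in NPCs (right, 2 against 2), with dotted lines at an FC of 2 and filled points for called genes. No point is filled in HEK293T cells, whereas in NPCs 6 filled points lie to the right, from 1.35 for MYL9 to 2.83 for ACTG2, and MYLK lies on the left line.

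The smooth muscle actins diverged. ACTG2, the enteric gamma-actin (ENSG00000163017, hg19 chromosome 2, 74119441 to 74146992), whose promoter with CArG boxes is shown above, was at 18.2 and 38.8 CPM in WT libraries S3 and S5 and at 221 and 183 CPM in KO libraries S1 and S2. Both KO libraries were far above both WT libraries. The log2 FC was 2.83 (standard error 0.326, adjusted P = 0.00112), the highest among the members, and 3.46 without S5. ACTA2 was at 30.8 and 43.2 CPM in WT and at 37.8 and 27.0 CPM in KO NPCs. The groups overlapped, and the log2 FC was -0.19 (95% interval -0.72 to 0.34, adjusted P = 0.575), or 0.06 without S5 and 0.02 without S2. Per kilobase, ACTG2 stood at 0.875 and 1.33 times the level of ACTA2 in the WT libraries and at 8.64 and 9.99 times in the KO libraries. The reads of actin genes are alike in their coding sequence, and only uniquely mapped reads were counted, so that the split between actins is uncertain. ACTA2 also shares 380 exonic bases with FAS and 1638 with ACTA2-AS1, both on the opposite strand, and the strand setting of the count is not given in the sources used here.

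Of the myosin genes, the light chain rose and its kinase fell. MYL9, the regulatory light chain of smooth muscle myosin (ENSG00000101335, hg19 chromosome 20, 35169900 to 35179850), was at 190.5 and 296 CPM in WT and at 656 and 582.5 CPM in KO NPCs. Its log2 FC was 1.35 (standard error 0.202, adjusted P = 0.00318), and the groups did not overlap. MYLK, the kinase that phosphorylates this light chain (ENSG00000065534, hg19 chromosome 3, 123328896 to 123603179), was at 118 and 238 CPM in WT libraries S3 and S5 and at 92.7 and 84.5 CPM in the KO libraries. S3 lay much nearer to the KO libraries than S5 did. The log2 FC was -1.005 (standard error 0.292, adjusted P = 0.0408), just past the threshold of FC. The call was lost without S5 (log2 FC -0.42), without KO library S1 (-1.07, adjusted P = 0.141), without S2 (-0.95, adjusted P = 0.161) and with voom (-0.91, adjusted P = 0.0726). The kinase and telokin share these counts, since they are made from the same gene, and 612 exonic bases are shared with MYLK-AS1.

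MYH11 (ENSG00000133392, hg19 chromosome 16, 15796992 to 15950885) stayed near the limit of the count. It had 5 and 20 counts in the WT NPC libraries S3 and S5 and 5 and 7 counts in KO libraries S1 and S2. The groups overlapped, with a log2 FC of -1.14 (95% interval -3.23 to 0.96, adjusted P = 0.386). It became 0.24 without S5 and -1.84 without S3. A total of 1063 of its exonic bases are shared with NDE1 on the opposite strand.

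All 3 of TPM1, TPM2 and CALD1 rose. TPM1 (ENSG00000140416, hg19 chromosome 15, 63334819 to 63364114), which encodes the alpha-tropomyosin that winds along actin, was at 750 and 532 CPM in WT and at 2213 and 2344 CPM in KO NPCs (log2 FC 1.83, standard error 0.168, adjusted P = 0.000448). TPM2, the beta-tropomyosin gene (ENSG00000198467, hg19 chromosome 9, 35681989 to 35690053), was at 122 and 156 CPM in WT and at 406 and 397 CPM in KO NPCs (log2 FC 1.53, standard error 0.137, adjusted P = 0.000407). CALD1, which encodes the actin- and myosin-binding protein caldesmon (ENSG00000122786, hg19 chromosome 7, 134429003 to 134655480), was at 574.5 and 681 CPM in WT and at 1831 and 1569 CPM in KO NPCs (log2 FC 1.44, standard error 0.132, adjusted P = 0.000448). For each of the 3 genes the lowest KO library was above the highest WT library. These genes make muscle and non-muscle forms by splicing and from several start sites, which counts per gene do not separate. TPM1 also shares 2645 exonic bases with TPM1-AS on the opposite strand.

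The calponin family members behaved differently from each other. TAGLN (ENSG00000149591, hg19 chromosome 11, 117070086 to 117078180), which encodes transgelin, an actin-bundling protein also known as SM22, was at 814 and 1069 CPM in WT libraries S3 and S5 and at 3502 and 3495 CPM in KO libraries S1 and S2. It was the most abundant member in each NPC library in CPM, and its KO libraries were nearly equal (log2 FC 1.89, standard error 0.145, adjusted P = 0.000235). TAGLN shares 2233 exonic bases with PCSK7 on the opposite strand. CNN1, calponin 1, which binds actin and slows myosin (ENSG00000130176, hg19 chromosome 19, 11649582 to 11661138), was at 27.3 and 41.4 CPM in WT and at 42.03 and 38.02 CPM in KO NPCs. These groups overlapped, and the log2 FC was 0.22 (95% interval -0.27 to 0.71, adjusted P = 0.475), or -0.05 without S3.

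The WT NPC libraries differed from each other more than the KO libraries did. S5 was higher than S3 in 9 of the 10 members, with ratios of CPM between 1.19 for CALD1 and 4.33 for MYH11, and only TPM1 was lower in S5, at a ratio of 0.710. Among the KO libraries, the ratio of S2 to S1 lay between 0.715 for ACTA2 and 1.28 for MYH11. The calls on ACTG2, TAGLN, TPM1, TPM2, CALD1 and MYL9 in NPCs were kept with each library left out in turn.

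The share of each family taken by the listed contractile genes was computed from counts per kilobase of merged exons, with no test. TPM1 and TPM2 took 42.6 ± 0.281% of the tropomyosin in WT NPCs and 59.5 ± 1.67% in KO NPCs (SD, n = 2). TPM3 and TPM4, the other tropomyosin genes, had log2 FCs of 0.66 and 0.73, each under the FC threshold. Their shares went from 26.0 to 17.8% and from 31.4 to 22.6%. In HEK293T cells TPM1 and TPM2 took 5.63 ± 0.258% in WT and 6.77 ± 4.05% in KO cells (SD, n = 3), a difference of 1.14 percentage points that was -1.10 without KO library S18, and TPM3 led with 72.3% and 73.9%.

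TAGLN and CNN1 together took 26.5 ± 2.41% of the calponin and transgelin family in WT NPCs and 49.7 ± 1.16% in KO NPCs (SD, n = 2). TAGLN alone rose in share from 24.45 to 48.45%, and CNN1 fell from 2.05 to 1.28%. TAGLN2, the paralog found in many cell types, was up-regulated (log2 FC 1.995, adjusted P = 7.14e-05), and its share rose from 13.8 to 28.9%. CNN2 and CNN3 had log2 FCs of -0.52 and -0.63 and fell in share from 29.4 to 10.9% and from 29.4 to 10.03%. TAGLN3, the neuronal paralog, was at 1.0 ± 0.158% in WT and 0.498 ± 0.081% in KO NPCs, while its level was 10.1 ± 2.68 and 9.41 ± 1.29 CPM (log2 FC -0.11, adjusted P = 0.804). MYL9 took 23.9 ± 9.26% of the regulatory light chains in WT NPCs, where S3 was at 17.4% and S5 at 30.5%, and 34.1 ± 1.99% in KO NPCs. The gain of 10.2 percentage points was 3.63 without S3, 16.7 without S5 and 6.47 with the longest transcript as length. MYL12A and MYL12B, the other light chains, had log2 FCs of 0.63 and 0.56, neither called.

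ACTA2 and ACTG2 together remained a small part of actin, at 0.40 ± 0.136% in WT and 1.34 ± 0.196% in KO NPCs (SD, n = 2). ACTB and ACTG1, the cytoplasmic actins, took 40.0 and 59.4% in WT and 39.9 and 58.8% in KO NPCs. ACTC1, the cardiac alpha-actin, was down-regulated (log2 FC -3.74, adjusted P = 0.000221), from 16.8 ± 3.49 to 1.25 ± 0.048 CPM, and ACTA1, the skeletal actin, took 0.0033% and 0.0031%. MYH11 took 0.024 ± 0.019% of the heavy chains in WT and 0.0066 ± 0.00087% in KO NPCs. The non-muscle myosins took nearly all of the rest, MYH9 from 65.5 ± 4.75 to 88.3 ± 0.233% and MYH10 from 33.4 ± 4.21 to 10.7 ± 0.180%, with MYH14 at 1.08 and 0.999%. MYH9 was up-regulated (log2 FC 1.17, adjusted P = 0.00147), and MYH10 had a log2 FC of -0.88, below the threshold of FC (adjusted P = 0.000886).

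**Figure D3:**
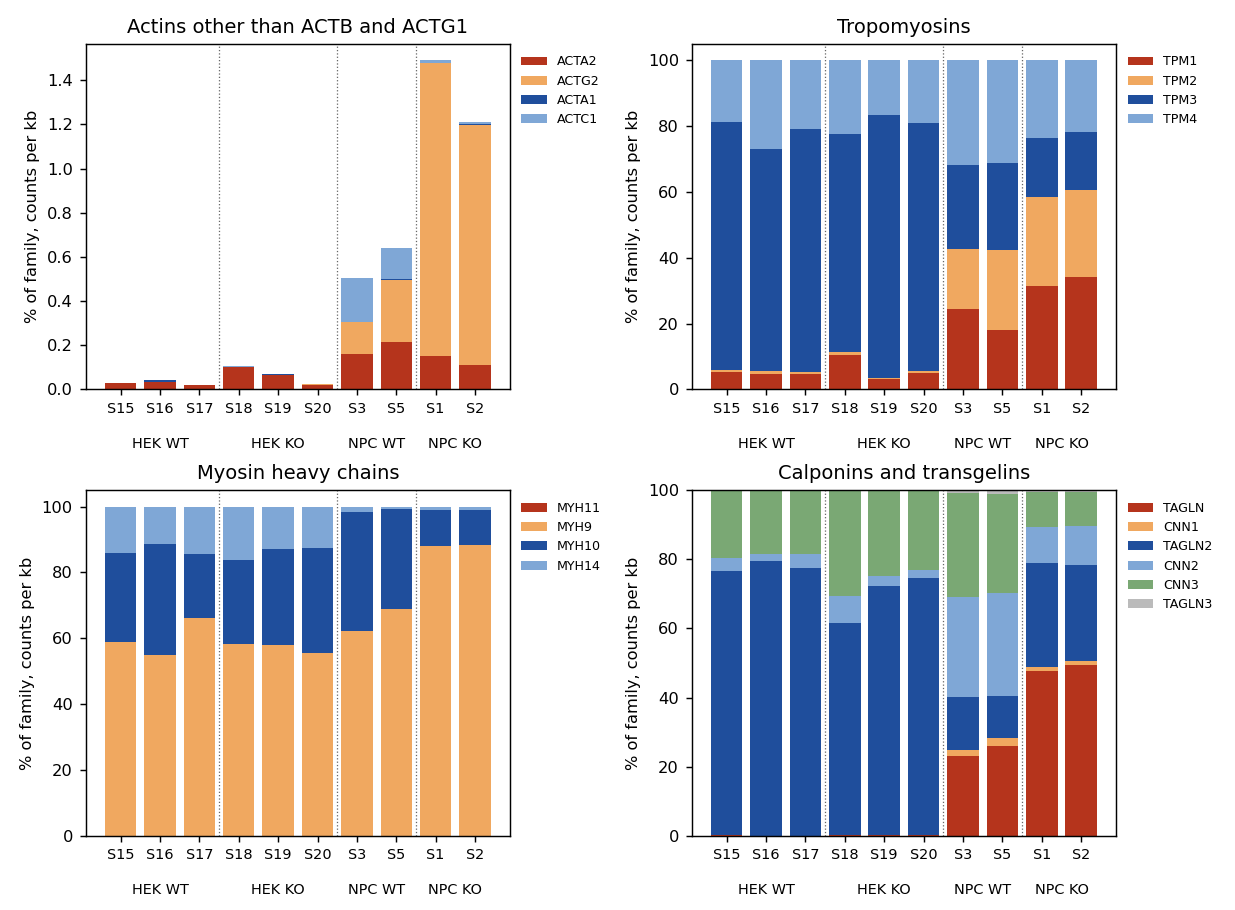
Share of each gene in its family in each library, as percent of counts per kilobase of merged exons, for actins other than ACTB and ACTG1 (top left, axis to 1.5%), tropomyosins (top right), myosin heavy chains (bottom left) and calponins with transgelins (bottom right). In KO NPCs (S1, S2) ACTG2 fills most of the actin bar, TPM1 and TPM2 pass the middle of the tropomyosin bar at 59.5%, and TAGLN with CNN1 reaches 49.7%, whereas MYH11 cannot be seen in any bar.

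The KO effect on 4 members differed between the cell types by a test of the difference itself, the interaction of genotype and cell type over all 10 libraries. The log2 FC in NPCs exceeded that in HEK293T cells by 2.46 for TPM2 (standard error 0.505, adjusted P = 0.00673), by 1.63 for CALD1 (standard error 0.283, adjusted P = 0.00257), by 1.53 for TPM1 (standard error 0.406, adjusted P = 0.0242) and by 1.34 for TAGLN (standard error 0.320, adjusted P = 0.0148). These were 4 of 10 members higher and 0 lower, and of 19255 genes 6.01% were called higher and 6.22% lower (12.2% in either direction). Of the genes called, 1157 of 2354 were higher, and 843 of 2545 with scaling by library size alone. TPM2 and TAGLN had few counts in HEK293T cells, at most 44 and 48 in a library. The TPM2 difference lay between 1.90 and 2.84 with a library left out. TPM2 and CALD1 were called in each fit with a library left out. The call on TAGLN was lost without WT HEK293T library S15 (log2 difference 0.98), and that on TPM1 without KO HEK293T library S20 (1.43), WT NPC library S5 (1.28) or the KO NPC libraries S1 (1.58) or S2 (1.48).

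The difference between cell types was not called for the other 6 members. ACTA2 had a log2 difference of -1.26 (adjusted P = 0.201), which was called without S20 (-1.67, adjusted P = 0.0164). The estimates for ACTG2 (4.69, adjusted P = 0.105) and MYL9 (4.71, adjusted P = 0.132) rest on the few counts of these genes in HEK293T cells. They were 1.07 for ACTG2 without S16 and 1.36 for MYL9 without S15. The estimate for ACTG2 was 6.47 without KO HEK293T library S20, not called, and 5.32 without S5, where it was called. MYLK differed by -0.31 (95% interval -1.30 to 0.67), CNN1 by -0.88 (-3.22 to 1.46) and MYH11 by -1.16 (-3.49 to 1.17), and single libraries set the sign of all 3. Without S5 the values were 0.26 for MYLK and 0.21 for MYH11, and without KO HEK293T library S18 the value was 1.70 for CNN1, none of them called.

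Neither SRF nor its main coactivators were called in NPCs. SRF was at 61.6 ± 28.2 CPM in WT and 63.9 ± 1.93 CPM in KO NPCs (SD, n = 2; log2 FC 0.05, adjusted P = 0.912). MKL1 went from 33.6 ± 0.984 to 36.6 ± 0.415 CPM (log2 FC 0.13, adjusted P = 0.521), and MKL2 had a log2 FC of -0.09 (adjusted P = 0.690). MYOCD, the coactivator restricted to cardiac and smooth muscle, had between 14 and 18 counts in the WT and between 41 and 45 counts in the KO libraries, with a log2 FC of 1.37 that was not called (adjusted P = 0.0560). Of the 10 regulators of SRF, 2 were up-regulated and 1 was down-regulated. FHL2, a LIM-domain cofactor, had a log2 FC of 1.78 and ELK4, a ternary complex factor, of 1.37. CSRP2, a LIM-domain protein of smooth muscle, fell by 2.14 on the log2 scale, from 288.5 ± 29.3 to 65.4 ± 2.67 CPM.

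Of 14 immediate targets of SRF and its coactivators, 4 were up-regulated and 0 down-regulated in NPCs, with a median log2 FC of 0.87. For this and the other lists in NPCs, the shares over all genes tested are the 8.45% higher and 8.36% lower given above. CTGF, a secreted matricellular protein, rose from 570 ± 27.7 to 4058 ± 144 CPM (log2 FC 2.83), and ANKRD1 and CYR61 had log2 FCs of 2.42 and 2.37. These genes are also known targets of YAP and TEAD. Of the 14 targets, 13 had a log2 FC above 0. The early response genes were not called, with log2 FCs of 1.57 for FOSB (adjusted P = 0.109), 0.97 for JUNB (adjusted P = 0.0456), 0.91 for IER2 (adjusted P = 0.0021) and 0.70 for EGR1 (adjusted P = 0.325), so that JUNB and IER2 missed the FC threshold alone. FOS, at -0.61 (adjusted P = 0.175), was the target below 0. Among 20 accessory genes of smooth muscle, 10 were up-regulated and 0 down-regulated, with a median log2 FC of 1.37. DES, the muscle intermediate filament protein desmin, rose from 2.01 ± 0.633 to 172 ± 18.7 CPM (log2 FC 6.42), and CAV1, the main caveolar protein, from 57.0 ± 26.1 to 374 ± 8.69 CPM (log2 FC 2.71). SYNPO2 had 2 counts in each WT library and 22 and 34 in the KO libraries. Of 16 genes that control myosin activity through calmodulin, RHOA, ROCK and the myosin phosphatase, 1 was up-regulated and 0 down-regulated, namely ARHGAP42, a RHOA-inactivating protein of smooth muscle (log2 FC 1.74), a share no higher than that over all genes. In HEK293T cells, 0 genes of these 4 lists were called, beside 0.489% of all genes tested there.

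Some markers of other cell types were also called in NPCs. Of 14 mural cell and fibroblast markers, 6 were up-regulated and 0 down-regulated. Their summed level was between 2010 and 3035 CPM in WT and between 5902 and 6826 CPM in KO NPCs, and 0 of them were at 0 in all libraries of a group. CSPG4 had a log2 FC of 3.84 and COL3A1 of 3.59. POSTN (3.96) was counted 6 and 19 times in WT but 33 and 367 times in KO NPCs, so that its size rests mainly on 1 KO library, while RGS5, a pericyte marker, had a log2 FC of -0.89. Of 8 neural crest markers, 5 were up-regulated. The summed level of the list was 44.3 to 63.6 CPM in WT and 277 to 356 CPM in KO NPCs. FOXD3 was not called, with 0 counts in both WT libraries and between 2 and 10 in the KO libraries. PAX3 had between 3 and 15 counts in the WT and between 882 and 1145 in the KO libraries. Of 11 neural progenitor markers, 6 were down-regulated and 0 up-regulated, among them FABP7 (log2 FC -6.69) and SOX2 (-3.72). Their summed level was 9765 to 10050 CPM in WT and 9738 to 10450 CPM in KO NPCs. Most of it came from VIM, which mesenchymal cells also express, at 6411 ± 859 CPM in WT and 6768 ± 454 CPM in KO NPCs, and from NES, at 2630 ± 518 and 3135 ± 67.9 CPM, neither of them called. SOX2 went from 223.0 ± 5.52 to 16.9 ± 5.93 CPM. HES5 was not called, with between 4 and 6 counts in the WT and 0 in both KO libraries.

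Among the other muscle markers, 2 cardiac genes were up-regulated, MYL7 with 0 and 2 counts in the WT and 59 and 67 in the KO libraries and TNNT2 with a log2 FC of 3.07, and MYH7 was down-regulated (log2 FC -3.59), of 7 tested. The cardiac list summed to 7.52 and 49.8 CPM in WT and to 22.03 and 24.4 CPM in KO NPCs, and 1 of 3 skeletal markers, TNNT3, was up-regulated within a sum of at most 2.18 CPM. Of 7 endothelial markers, 3 were up-regulated and 1 was down-regulated (sums of 49.8 and 177 CPM in WT, 88.6 and 116 CPM in KO NPCs). Of 8 epithelial markers, 2 were up-regulated, KRT8 and KRT18, and their sum went from between 348 and 601 to between 1310 and 1472 CPM. Of 5 pluripotent markers, 1 was up-regulated and 1 was down-regulated, with sums of 142 to 162 and 69.6 to 76.2 CPM. NANOG was not called, with between 3 and 5 counts in the WT and 0 in both KO libraries. In HEK293T cells, 0 genes of these lists were called, beside 0.489% of all genes tested there. The part of other cell types in the changes of the contractile genes was not tested.

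**Figure D4:**
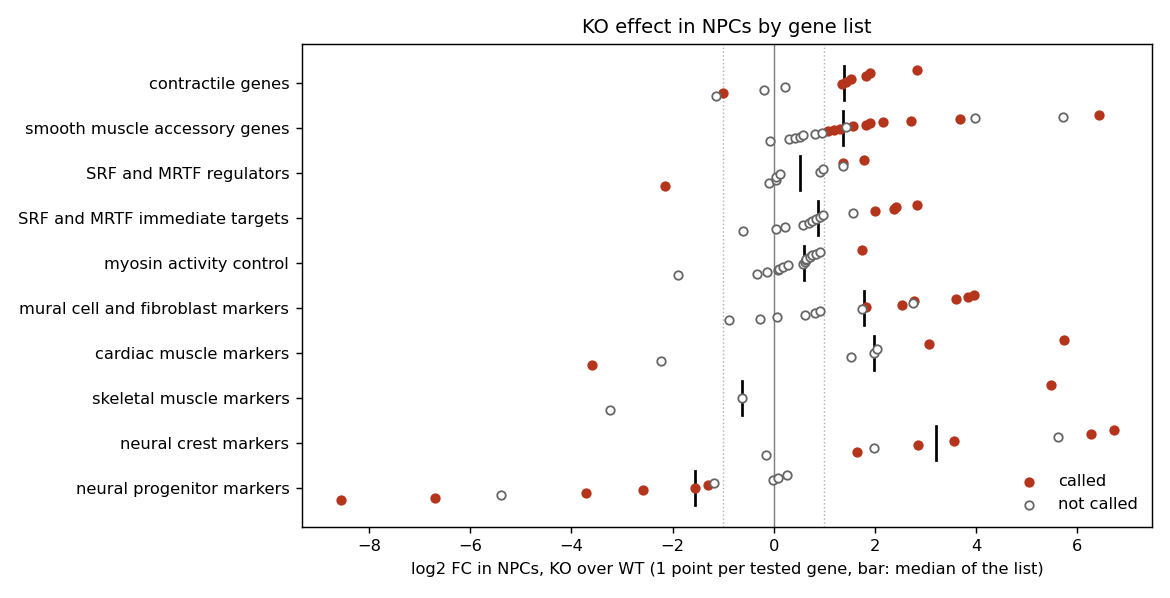
Log2 FC in NPCs, KO over WT, of each tested gene by list, with filled points for called genes, a bar at the median of each list and dotted lines at an FC of 2. The contractile genes (median 1.39), the accessory genes (1.37) and the mural cell and fibroblast markers (1.78) lie mostly to the right of 0, and the neural progenitor markers (median -1.56) lie mostly to the left.

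The contractile genes lie on 10 different chromosomes, and the genes next to them were compared in the same fit. Of the 60 nearest tested protein-coding genes, 3 on each side of each member, 4 were up-regulated and 3 down-regulated in KO NPCs, which is 11.7%, beside 16.8% of all genes. The up-regulated neighbors were STAMBPL1 and IFIT2 next to ACTA2, ADCY5 next to MYLK and ABCC1 next to MYH11. ELAVL3, AGBL3 and ARHGEF39, next to CNN1, CALD1 and TPM2, were down-regulated. No member with an up-regulated neighbor was up-regulated itself. In HEK293T cells, 0 of the 60 neighbors were called, beside 0.489% of all genes, so a count of 0 says little there.

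Across the 10 libraries, the level of each member on the log2(CPM + 1) scale was compared with the mean of the other members. Pearson's r was 0.916 to 0.994 for 9 members and 0.276 for MYH11. The 5 other genes most like the mean of all members, of 13938 genes with a mean of at least 1 CPM, were ADGRL4 (r = 0.999), CAVIN3, TMEM132D, NECTIN3-AS1 and IGFBP3 (r = 0.998 for each of the last 3). ADGRL4 had 0 CPM in HEK293T cells and 29.2 ± 15.6 and 42.5 ± 0.695 CPM in WT and KO NPCs (SD, n = 2). The points fall into HEK293T and NPC libraries, so that these values mostly describe the difference between the cell types.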

How the data were processed

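RNA was measured in 10 libraries made with a stranded mRNA kit. Per the labels and the methods of the study, the authors aligned the reads with HISAT2 (hg19), assigned those with a unique position to genes with featureCounts, and the deposited values are raw counts per gene, 1 table per cell type, without normalization. Tool versions are not given in the sources used here. Identifiers were paired with symbols, coordinates and exon lengths through the GENCODE annotation lifted to hg19 (23273 of 24050 found). Promoters came from RefSeq (GRCh38.p14).

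Groups were taken from the labels. Genes with a total count of at least the number of libraries were kept. The test was edgeR's quasi-likelihood test (edgeR 4.0.16 in R 4.3.3) after TMM scaling, with Benjamini-Hochberg adjustment over all genes tested, each cell type by itself (19018 and 20577 genes), and over all 10 libraries for the interaction and the WT comparison (19255 genes in both tables with a total of at least 10 counts). The study's own test, voom in limma 3.58.1, was an alternative, as were DESeq2 1.42.0, other size factors, other filters, no FC threshold, a single fit of all libraries, the longest transcript as length, and each library left out. The test was tried on simulated data. The share of false calls there was somewhat above the nominal level for HEK293T cells and for the interaction. The interaction missed more of the changed genes than the other comparisons. Before the changes, each simulated gene had the same level in every group. The trial thus does not cover members close to absent from HEK293T cells. CPM values carry TMM factors, set separately per cell type for levels, so levels compared between cell types are approximate. Standard errors were calculated back from the test statistic.

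Named were all 10 members, ZNF274, SRF, MYOCD, MKL1 and MKL2, family genes, called neighbors, the 5 genes most alike, and up to 3 called genes of each list with the largest change. Other genes and markers named beside a count were chosen after their values were seen. The members, lists and tests were chosen with earlier results of these data known.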

Additional observations from a re-analysis of the deposited data

Results flagged for a closer look

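The KO effect on 4 contractile genes differed between NPCs and HEK293T cells by the interaction term of edgeR's quasi-likelihood test. The log2 FC in NPCs minus that in HEK293T cells was 2.46 for TPM2, 1.63 for CALD1, 1.53 for TPM1 and 1.34 for TAGLN. In NPCs, both KO libraries were above both WT libraries for each of the 4 genes. In HEK293T cells the groups overlapped for CALD1, TPM1 and TAGLN. The KO libraries of TPM2 were below the WT libraries there, at only 6 to 44 counts per library. No group of libraries was large enough for a check of single outlying libraries.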

How the results depend on the processing

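The members called numbered 0 in HEK293T cells and 9 in the WT comparison under every alternative run, 6 to 7 in NPCs, and 3 to 5 for the interaction (3 to 4 with a library left out). None of the alternatives reversed a call. Of the single genes, 12 values lost a call and 3 gained one, all on MYLK in NPCs or in the interaction, where MYL9 was called by DESeq2 (4.10, adjusted p = 0.0213), TAGLN was lost with voom (1.30, adjusted p = 0.0691) and TPM1 with library size alone (1.30, adjusted p = 0.0545). The MYLK call was also lost with all 10 libraries in 1 fit (-0.99). Where leaving out a library left 1 library in a group, that library was assumed to vary like the others. Calls over all genes ranged from 44 to 116 in HEK293T cells with a library left out (93 with all, 164 by DESeq2), from 2084 to 4038 in NPCs (3459 with all), and from 1455 to 2494 for the interaction (2354 with all). Scaling by library size alone moved the median log2 FC of all genes in NPCs from -0.02 to -0.13 and that of the interaction from -0.03 to -0.24. No paired analysis was possible because the library numbers are not shared between groups and the labels tie none of the WT libraries to a KO library. The depth limits ACTG2, MYL9, CNN1 and MYH11 in HEK293T cells, and MYH11 in NPCs, where a few counts set each value. The small number of NPC libraries limits the precision of every value there.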

Other observations

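Between WT NPCs and WT HEK293T cells, the counts of genes called varied over the lists of genes around the contractile apparatus. In the fit over all 10 libraries, 40.7% of all genes were called in either direction. Of the 20 accessory genes of smooth muscle, 11 were higher in NPCs and 0 lower (25.2 and 15.5% of all genes tested). Of the 14 immediate targets of SRF and its coactivators, 8 were higher and 1 was lower, and of the 10 regulators, 4 were higher and 2 lower, with a median log2 difference of 0.07. Of the 16 genes that control myosin activity, 2 were higher and 1 was lower, a smaller share than over all genes. MYOCD had 0 counts in each WT HEK293T library. The KO effect differed between the cell types for 6 of the 20 accessory genes, 1 of the 14 immediate targets and 2 of the 16 myosin control genes, all higher in NPCs, and for 3 of the 10 regulators, of which 2 were higher and 1 was lower. Over all genes, 6.01% were called higher and 6.22% lower in that test (12.2% in either direction). The share of the immediate targets is thus near that of all genes called higher. For the myosin control genes it is 2 of 16, above the 6.01% of all genes called higher. The difference between these shares was not tested.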
